A study of Mus musculus with 50 samples.

Results

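The genes described here encode the voltage-gated sodium and calcium channels: every protein-coding gene of the mouse genome (GRCm38) whose symbol starts with Cacna or Cacnb, or is Scn with a number and a or b. There were 32 such genes among 21900 protein-coding genes, and 748 of the 144465 ATAC-seq peaks of the study lay on them or within 2 kb of them. Of these, 60 were end peaks, lying within 2 kb of either end of a gene, and 688 were body peaks, overlapping the gene away from its ends. No peak was shared between 2 of the channel genes.

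Voltage-gated sodium channels open within the rising phase of the action potential. Their pore is one large alpha subunit (Scn1a, Scn2a, Scn3a and Scn8a in central neurons, Scn4a in skeletal muscle, Scn9a, Scn10a and Scn11a in sensory neurons), and single-pass beta subunits (Scn2b, Scn3b and Scn4b among them) set its gating and place in the membrane. Voltage-gated calcium channels turn depolarisation into calcium entry: the L-type pores (Cacna1c, Cacna1d, Cacna1f, Cacna1s) couple it to transcription and contraction, the P/Q-, N- and R-type pores (Cacna1a, Cacna1b, Cacna1e) to transmitter release, and the T-type pores (Cacna1g, Cacna1h, Cacna1i) open near rest and support burst firing. Beta subunits (Cacnb1 to Cacnb4) bind the pore inside the cell, and alpha2delta subunits (Cacna2d1 to Cacna2d4) outside it. In the hippocampus these genes set firing threshold, dendritic calcium signals and release.

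ATAC-seq uses a transposase to insert sequencing adapters into DNA that nucleosomes leave free, so the read count of a peak measures how accessible it is. The nuclei were NeuN-positive, sorted from the ventral hippocampus of one side of the brain, and all mice were male C57BL/6JRj, born to dams of 1 breeding stock that were sent pregnant to 5 rearing facilities (RF1 to RF5). At each RF, 5 mice were killed in place at 8 weeks of age (time point 1, TP1), and after a move to 1 test laboratory 5 test-naïve littermates were killed at 14 weeks (TP2), which makes 50 libraries of 1 mouse each. RF1 and RF2 kept a normal light cycle, while RF3, RF4, RF5 and the test laboratory reversed it. RF1, RF2 and RF4 fed Altromin diets, and RF3, RF5 and the test laboratory Kliba Nafag diets. All libraries of a TP were amplified and sequenced together, and TP and sequencing batch therefore cannot be told apart. With bulk nuclei, a shift in the kinds of neuron sorted and a change within each neuron cannot be told apart either.

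Library totals ran from 33663505 to 77396321 counts at TP1 and from 5111223 to 36401717 at TP2. At TP1 each of the 25 libraries was nearest to another of its own RF, and at TP2 22 were. The other 3 libraries of TP2, RF1 replicates 3 and 5 and RF2 replicate 5, were nearest to libraries of other RFs. Both replicates 5 were nearest to RF5 libraries. RF1 replicate 3 was nearest to an RF2 library and had the lowest total, 5111223 counts. There were 7 pairs of libraries of different RFs within sampling noise, each with at least 1 of these 3. The main TP2 values that rest on RF1 or RF2 are given also without these 3 libraries. Within groups, 20 pairs of libraries differed by no more than sampling noise. Libraries were counted as 1 sample in each n below only where every pair among them did, which joined 14 of these pairs and left 6 apart, whereas the tests used all libraries. By the median of each class the neuronal markers were the most accessible: the strongest end peaks of the 6 neuronal markers had a median of 12.4 CPM/kb (CPM, the counts scaled to the library size, per kb of peak), against 3.02 for 4 astrocyte, 3.11 for oligodendrocyte, 3.45 for microglial and 1.97 for endothelial genes, and Mog, Cx3cr1, Flt1 and Pecam1 had no end peak. Single genes crossed that order, since Gad2 had 2.29 and Gad1 5.38 CPM/kb, below Mbp of oligodendrocytes at 8.92 and Gfap of astrocytes at 7.68. The summed CPM of the neuronal marker peaks was lowest in RF4 at TP1 (170 to 183, against 212 to 263 in the other RFs) and in RF3 at TP2 (173 to 176, against 191 to 221).

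For 24 of the channel genes RefSeq gives start sites, and 13 of them had one whose 250 upstream bases lay inside the gene's strongest end peak. The upstream bases of 6 of these, in GRCm38.p6, are printed to show the 2 kinds of start that the families hold, with every CG dinucleotide in capitals. The windows lie at chr2:14604056-14604305 (plus strand) for Cacnb2, chr2:24763153-24763402 (minus) for Cacna1b, chr5:15934441-15934690 (plus) for Cacna2d1, chr15:100870395-100870644 (plus) for Scn8a, chr2:66440838-66441087 (minus) for Scn1a and chr2:66634963-66635212 (minus) for Scn9a.
Cacnb2: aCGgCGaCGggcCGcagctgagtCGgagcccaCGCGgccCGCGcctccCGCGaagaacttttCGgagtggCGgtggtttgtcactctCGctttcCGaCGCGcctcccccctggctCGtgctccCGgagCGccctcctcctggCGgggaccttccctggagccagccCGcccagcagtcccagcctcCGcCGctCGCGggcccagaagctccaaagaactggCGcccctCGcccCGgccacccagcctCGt
Cacna1b: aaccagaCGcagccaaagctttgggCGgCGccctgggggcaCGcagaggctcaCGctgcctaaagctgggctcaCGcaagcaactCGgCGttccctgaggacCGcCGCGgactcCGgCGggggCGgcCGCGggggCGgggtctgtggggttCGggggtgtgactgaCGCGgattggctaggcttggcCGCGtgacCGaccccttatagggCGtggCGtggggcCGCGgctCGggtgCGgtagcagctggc
Cacna2d1: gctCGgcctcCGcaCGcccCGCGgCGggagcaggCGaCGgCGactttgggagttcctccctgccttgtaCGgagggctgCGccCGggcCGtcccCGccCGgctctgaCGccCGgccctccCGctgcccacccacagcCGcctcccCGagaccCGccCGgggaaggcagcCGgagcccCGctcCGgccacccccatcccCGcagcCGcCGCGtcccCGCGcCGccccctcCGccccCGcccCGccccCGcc
Scn8a: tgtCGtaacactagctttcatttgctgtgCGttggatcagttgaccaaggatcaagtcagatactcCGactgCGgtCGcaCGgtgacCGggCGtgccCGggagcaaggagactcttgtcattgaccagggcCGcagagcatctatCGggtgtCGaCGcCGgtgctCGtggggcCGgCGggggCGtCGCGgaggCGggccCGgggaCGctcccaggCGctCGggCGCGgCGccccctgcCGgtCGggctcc
Scn1a: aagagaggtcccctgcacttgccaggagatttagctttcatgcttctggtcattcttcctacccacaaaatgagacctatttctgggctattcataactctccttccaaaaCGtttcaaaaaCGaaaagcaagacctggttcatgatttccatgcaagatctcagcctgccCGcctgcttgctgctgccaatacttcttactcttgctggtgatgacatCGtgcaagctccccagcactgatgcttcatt
Scn9a: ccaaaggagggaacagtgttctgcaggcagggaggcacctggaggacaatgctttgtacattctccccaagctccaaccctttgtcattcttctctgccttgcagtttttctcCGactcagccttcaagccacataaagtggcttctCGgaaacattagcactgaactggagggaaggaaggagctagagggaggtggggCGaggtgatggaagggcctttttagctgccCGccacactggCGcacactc

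The first 4 held 30, 29, 36 and 30 CG dinucleotides and 68.0% to 82.4% GC, whereas those of Scn1a and Scn9a held 4 and 5 at 46.8% and 54.4% GC. Over all 32851 windows of the table the median was 6, at 52.4% GC. Across the 13 genes, the CG count and the level of the strongest end peak per kb had Spearman's rho of 0.41 and, with the level on a log2 scale, Pearson's r of 0.60. That is a description over 13 genes of the same libraries, and base composition also affects amplification. Among 25 upstream windows of the channel genes inside their own peaks, the letters GGGCGG (the GC box, either strand) stood in 10, against 32.7% of all windows, and CCAAT in 6, against 33.8%. TATAAA stood in 1 (12.4% of all windows) and the palindromic cAMP response element in 0 (1.55%).

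The strongest end peak of a gene by counts per kb is called its lead peak here. A lead peak was found for 30 of the 32 genes. Scn10a, a pore of pain-sensing neurons, had no peak at all, and Scn7a, which encodes a sodium channel that senses salt more than voltage, had 2 body peaks and no end peak. The Cacna1a lead peak was the highest, at 42.9 CPM/kb, above the strongest end peaks of 98.0% of the 15921 genes that have one. It was followed by Cacna1b, at 21.5 CPM/kb, and the lowest group mean of Cacna1a lay above the highest of Cacna1b. Both encode pores that trigger transmitter release. For Cacna1a, the lead peak lay at chr8:84638775-84639946, near the end of the gene with the higher coordinate, and no start site was given to say which end that is.

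Next in order came Cacnb1 (13.6), Scn8a (12.6), Scn3b (12.1), Cacna1h (11.6), Cacna2d3 (9.74), Cacna1g (8.77) and Cacna2d1 (8.75 CPM/kb). Between 7.43 and 5.11 CPM/kb lay Cacna1s, Scn2b, Cacnb3, Cacna1f, Cacna1i, Cacnb2, Cacnb4 and Cacna2d2. The lower end, from 4.8 to 2.11 CPM/kb, held Scn4a, Scn2a, Cacna1e, Scn3a, Cacna2d4, Scn4b, Cacna1d, Scn9a, Cacna1c, Scn1a and Scn11a. In no other pair of neighbours in this order did the ranges of the group means part. Scn11a, the sensory neuron pore at the foot of the list, was called as a peak in only 36 of the 50 libraries. The lead peaks of Cacnb1, Cacna1d and Cacnb3 also lay at an end of Rpl19, Chdh and Ddx23, and their values belong to both genes. For Cacna1s, Cacnb3, Cacna1f, Cacna2d2, Cacna1d and Scn11a, the lead peak lay at the end where transcription finishes.

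**Figure D1:**
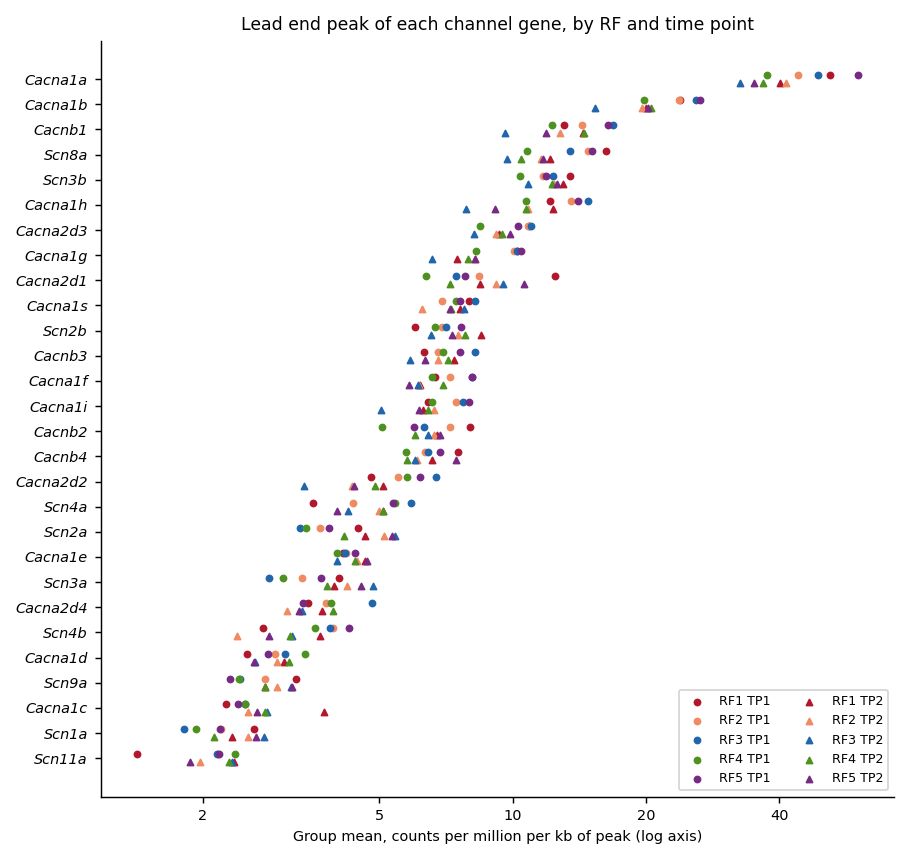
Level of the lead peak (CPM per kb, log axis) of 28 of the 30 genes that have one, in order of their level, with circles for the group means of the 5 RFs at TP1 and triangles for those at TP2. Cacna1a stands alone at 42.9 CPM/kb over all libraries and Scn11a is lowest at 2.11.

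Several large genes opened more inside than at their ends. Cacna1c, the main L-type pore of the brain, had 2.66 CPM/kb at its lead peak, against 13.7 at a body peak (chr6:119107120-119109678) that holds an internal start site with 48 CG dinucleotides upstream. Cacna1d, the other neuronal L-type pore, likewise had 2.91 at the lead peak and 8.17 at a body peak with a start site (chr14:30351906-30355186), and Cacna1e, the R-type pore, 4.32 and 6.96. For Scn2a, the pore of the axon initial segment in young excitatory neurons, the values were 4.34 and 7.64 CPM/kb, and for Cacnb4 6.48 and 8.62. The highest of all 688 body peaks, at 17.1 CPM/kb, lay in Scn8a (chr15:100922457-100924343), the main pore of the mature axon initial segment, 11928 bp from its nearest start site. Over all body peaks the median was 2.92 CPM/kb, and over the end peaks 4.05.

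Whether accessibility differed between the RFs was tested within each TP with edgeR, taking a false discovery rate (FDR) below 0.01 over all peaks as passing. At TP1, 47 of the 60 end peaks differed between RFs (78.3%) and 326 of the 688 body peaks (47.4%). Of all tested end peaks 80.3% did, and of all body peaks 50.7%. A differentially accessible region (DAR) also needs a log2 fold change of at least 0.5 between 2 RFs. At TP1 18 of the 60 end peaks and 121 body peaks (17.6%) were DARs in at least 1 pair, against 42.4% and 30.2% of all peaks of the same kinds.

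At TP2 fewer peaks passed: 30 of the 60 end peaks (background 55.1%) and 119 body peaks (17.3%, background 22.9%). DARs were 14 of the end peaks (23.3%, background 21.9%) and 61 of the body peaks (8.87%, background 15.9%). An interaction of RF and TP, tested over all 50 libraries, was found for 44 end peaks (73.3%, background 74.4%) and 262 body peaks (38.1%, background 46.7%), and for 25 of the 30 lead peaks. With the total of other peaks in the same fixed 1 Mb bin as an offset, 10 end and 30 body peaks of the channel genes passed at TP2, 33 of which had passed without it, and without the 3 libraries 40 and 232 passed. The shares of all end and body peaks that passed under these settings are not given here.

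By role, the T-type pores had the highest share of body peaks that passed. Of their 38 body peaks 32 depended on RF at TP1 (84.2%, background 50.7%) and 19 at TP2 (background 22.9%), with DARs at 15 and 13 (backgrounds 30.2% and 15.9%). L-type pores were lower, with 56 of 142 body peaks at TP1 and 23 at TP2, as were the pores of transmitter release, with 77 of 158 and 17. For the alpha2delta subunits 73 of 171 body peaks passed at TP1 and 31 at TP2, and for the calcium channel beta subunits 44 of 94 and 10. The central sodium channel pores had 28 of 62 and 14, and the peripheral and muscle pores 14 of 19 and 4, with DARs at 11 and 5. Sodium channel beta genes are short and had 4 body peaks, of which 2 passed at TP1 and 1 at TP2. Among end peaks, all 9 of the calcium channel beta subunits and all 5 of the alpha2delta subunits passed at TP1. For the L-type pores 4 of 8 did, and of the end peaks of all genes 80.3%. With so few peaks per role, nothing is read from these end-peak counts. No test of a difference between roles was made.

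At TP1, 27 of the 30 lead peaks depended on RF, those of Cacna1e and Cacna1c not among them, and 11 were DARs in a pair of RFs. Of all end peaks 80.3% and 42.4% were. All end peaks include the weaker ones of a gene, and shares among the lead peaks of all genes were not computed. Against the mean of the other 4 RFs, 10 lead peaks were higher in RF1: those of Cacnb2, Cacnb4, Cacna2d1, Cacna1a, Scn1a, Scn2a, Scn3a, Scn9a, Scn3b and Scn8a. Another 10 were lower there, among them Scn2b, Scn4b, Scn4a, Scn11a, Cacna2d2, Cacnb1, Cacnb3, Cacna1d and Cacna1i. Over all end peaks, 28.3% were higher and 30.0% lower in RF1, and of the 60 end peaks of the channel genes 12 were higher and 21 lower. RF4 was lower at 11 lead peaks, with overall levels from 6.48 to 42.9 CPM/kb (Cacna1a, Cacna1b, Cacnb1, Cacnb2, Cacnb4, Cacna2d1, Cacna2d3, Cacna1g, Cacna1h, Scn3b and Scn8a). The background for that direction was 40.1% of all end peaks. Over all 60 end peaks RF4 was higher at 8 and lower at 12 (7.38% of all end peaks were higher), and over the body peaks higher at 38 and lower at 32 (6.03% and 5.68% of all body peaks).

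Cacna2d1, whose product carries pores to the membrane and binds gabapentin, had the widest range between RFs at TP1. Its lead peak (chr5:15933243-15936549, around the start printed above) had 48.7, 40.9, 35.1, 37.4 and 44.4 CPM in the RF1 libraries. It had 25.5, 25.1, 30.2, 27.4 and 30.9 CPM in RF2 and 25.7, 23.8, 25.5, 24.9 and 23.1 in RF3. RF1 did not overlap any other RF, with a mean of 41.3 ± 5.41 CPM (SD, n = 5). Lowest were RF4, with 22.7, 20.6, 21.4, 22 and 18.8 CPM, while RF5 had 24.6, 26.6, 28.0, 27.4 and 22.3. RF1 was 0.75 ± 0.05 higher than the mean of the others (log2 fold change ± SE, edgeR adjusted p = 5.5e-17). With the offset for the 1 Mb bin of the peak, which ends inside the gene, RF1 was still 0.46 higher. RF4 was lower by 0.47 ± 0.06 (log2, adjusted p = 5.6e-09), which an offset fitted over abundance in each library (loess) brought to -0.23.

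Scn4a, the skeletal muscle pore, went the other way. Its lead peak (chr11:106364847-106366957) had 7.01, 8.14, 8.14, 7.37 and 6.72 CPM in RF1 and 12, 13.2, 12.6, 11.5 and 13.1 in RF3. In RF2 the values were 9.32, 9.82, 8.49, 9.24 and 9.21 CPM, in RF4 11.7, 10.5, 12.9, 10.4 and 11.6, and in RF5 10.5, 11.5, 12.3, 11.7 and 10.7. RF1, with 7.47 ± 0.649 CPM (SD, n = 5), was below each library of each other RF, and RF3 had 12.5 ± 0.627 (SD, n = 3). On the log2 scale RF1 fell by 0.56 ± 0.06 against the others (adjusted p = 1.2e-11) and RF3 rose by 0.35 ± 0.06 (adjusted p = 3.7e-06). A body peak of Scn4a (chr11:106328644-106330387) had 2.00, 2.86, 3.14, 2.26 and 1.82 CPM in RF1, and 4.58, 5.27, 4.72, 5.16 and 4.59 in RF3. RF1 was lower there by 0.82 ± 0.10 (log2, adjusted p = 2.5e-10).

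Scn11a had the third of these lead peaks (chr9:119750806-119752191), at low counts. The RF1 libraries had 2.42, 1.99, 2.18, 1.77 and 1.46 CPM, and the other RFs 2.29 to 3.82. RF1 reached into that range with its highest library only. It was lower by 0.63 ± 0.10 (log2, adjusted p = 4.6e-07).

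Cacna1a, the P/Q-type pore, had 39.2, 43.8, 43.9, 47.3 and 45.8 CPM in RF4 and 60.4, 70.6, 78.0, 73.3 and 70.7 in RF5 at its lead peak. RF1 had 46.0, 67.5, 70, 62.3 and 58.9 CPM, RF2 43.7, 55.2, 54.6, 51.2 and 54.0, and RF3 48.4, 53.7, 62.8, 62.2 and 59.4. RF4 (44.1 ± 3.51 CPM, SD, n = 4) and RF5 (69.4 ± 6.4 CPM, SD, n = 4) did not overlap each other, while RF1 spanned most of the distance between them. RF5 was higher than the others by 0.42 ± 0.04 (log2, adjusted p = 1.6e-10) and RF4 lower by 0.44 ± 0.05 (adjusted p = 4.9e-11). With the loess offset RF5 kept 0.30, whereas RF4 came to -0.04 (adjusted p = 0.37).

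Cacnb2 encodes the beta subunit of L-type channels in heart and brain. Its lead peak (chr2:14603523-14606010) had 20.3, 20.3, 18.5, 18.2 and 22.4 CPM in RF1 and 13, 12.3, 12.5, 13.1 and 12.2 in RF4. Between them, RF2 had 16.2, 15.8, 19.6, 17.8 and 20.6, RF3 14.6, 14.9, 15.7, 16.2 and 16.9, and RF5 13.6, 15.8, 15.5, 14.4 and 15.3 CPM. RF4, with 12.7 ± 0.423 CPM (SD, n = 4), lay below all other libraries, and RF1 overlapped RF2. RF1 was higher by 0.40 ± 0.05 (log2, adjusted p = 2e-09), and by 0.15 with the 1 Mb offset, and RF4 lower by 0.43 ± 0.06 (adjusted p = 5.3e-09), with -0.32 under the loess offset.

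**Figure D2:**
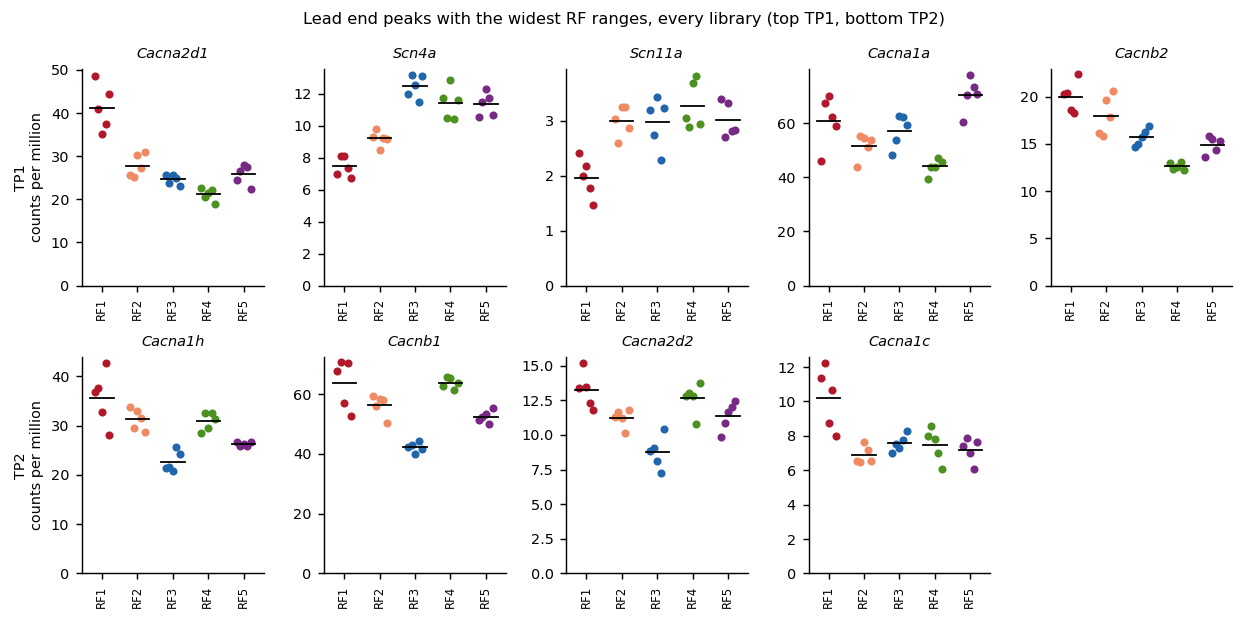
CPM of every library at the 5 lead peaks with the widest range between RF means at TP1 (top row) and at 4 of the 5 at TP2 (bottom row), with a line at the mean of the 5 libraries of an RF. Cacna2d1 in RF1 (35.1 to 48.7 CPM) and Scn4a in RF1 (6.72 to 8.14) stand clear of the other RFs at TP1, and RF3 is lowest at Cacna1h (20.8 to 25.6) and Cacnb1 (39.9 to 44.2) at TP2.

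All 4 central sodium channel pores were higher at their lead peaks in RF1 at TP1. The differences from the other RFs were 0.37 ± 0.07 for Scn1a (log2, adjusted p = 1.5e-05), 0.33 ± 0.06 for Scn2a (1.2e-06), 0.34 ± 0.06 for Scn3a (6.9e-07) and 0.27 ± 0.05 for Scn8a (1.3e-05). For Scn9a, the pore of sensory neurons beside them on chromosome 2, the difference was 0.40 ± 0.07 (adjusted p = 1.4e-06). With the 1 Mb offset, Scn1a kept 0.03, Scn2a 0.04, Scn3a 0.06 and Scn9a 0.07. These 4 genes share a region, so they are not 4 separate observations. Scn8a, on another chromosome, had 0.40 with that offset, but with the loess offset it came to 0.11 and no longer passed (adjusted p = 0.014). Scn4b, the beta subunit linked to resurgent current, was lower in RF1 by 0.51 ± 0.07 (log2, adjusted p = 2.5e-09).

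Several of the lead peaks lower in RF4 at TP1 held CG-rich starts. Scn8a was lower by 0.47 ± 0.05 (log2, adjusted p = 7.5e-10), Cacna1b by 0.34 ± 0.05 (1.3e-07). For the 9 genes with 16 or more CG dinucleotides in the window inside the lead peak, the RF4 log2 fold change ran from -0.47 to -0.03 with a median of -0.34. The 4 genes with 5 or fewer had -0.18 to -0.05, a median of -0.15. That split was made with the values in view. With the loess offset Scn8a came to -0.10, Cacna1b to 0.02 and the median of the 9 genes to -0.05, and only Cacnb2 of the 11 lead peaks still passed as lower. With the 1 Mb offset 13 lead peaks passed as lower in RF4, all 11 among them. Across the 13 genes with a window inside the lead peak, the CG count and the RF4 log2 fold change had Spearman's rho of -0.77, and -0.81 with the 1 Mb offset and -0.22 with the loess offset, a description over genes of the same libraries. Over all end peaks the median of RF4 against the others was -0.13 without an offset, and -0.01 with the loess offset and with the 1 Mb offset. Of the marker peaks of other cells, those of oligodendrocytes and astrocytes were low in RF4 at TP1 too. The microglial sum was 29.1 to 35.2 CPM in RF4, against 25.5 to 32.6 in the other RFs. The endothelial peak had 1.13 to 2.23 CPM in RF4 and 0.912 to 2.34 in the others. The oligodendrocyte sum was 23.5 to 26 CPM in RF4, against 28.2 to 36.8 in the other RFs, and the astrocyte sum 26.9 to 29.5 in RF4 and 26.1 to 29.5 in RF5, against 31.7 to 36.6 in RF1, RF2 and RF3. The part of these and of the neuronal marker peaks in the RF4 values was not tested.

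At TP1 the body peaks that passed in RF1 mostly went one way within a gene. There, 87 body peaks were higher and 152 lower than in the others, 12.6% and 22.1% of the 688, against 18.5% and 22.1% of all body peaks. Lower in RF1 were 26 of 49 peaks of Cacna1a, 17 of 24 of Cacna1b, 12 of 16 of Cacna1i, 10 of 11 of Cacna1h and 7 of 11 of Cacna1g, with 0 higher in each of these. The T-type pores together had 29 of 38 body peaks lower and 0 higher. Also mostly lower were Cacna1d (15 of 45, with 2 higher), Cacna2d2 (7 of 12), Cacna2d4 (8 of 15), Cacna2d3 (20 of 91) and Scn8a (9 of 30). For Cacna2d3 the count of lower peaks lay near the 22.1% of all body peaks.

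Higher in RF1 were 18 of 53 body peaks of Cacna2d1, 17 of 52 of Cacnb2, 12 of 40 of Cacnb4, 13 of 85 of Cacna1e, 6 of 17 of Scn2a, 3 of 7 of Scn1a, 3 of 8 of Scn3a, all 4 of Scn9a and both of Scn7a. The calcium channel beta subunits as a group had 29 higher and 2 lower. Cacna1c was mixed, with 4 higher and 7 lower of 84. RF5 had 80 body peaks higher (background 9.74%), among them 18 of 49 of Cacna1a and 11 of 85 of Cacna1e. For Cacna1e both counts of higher peaks lay near the shares of all body peaks, 18.5% in RF1 and 9.74% in RF5. At Scn8a and Cacna1a the lead peak was higher in RF1 while all body peaks that passed were lower. Both lead peaks passed as higher with the 1 Mb offset, and neither did with the loess offset, where Cacna1a came to -0.04.

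Among single body peaks, the widest range at TP1 was in Cacna2d3, an alpha2delta subunit (chr14:29110530-29111293). The RF5 libraries had 2.75, 1.98, 1.96, 2.20 and 2.47 CPM, and all others between 0.83 and 1.71. RF5 did not overlap them, and was higher by 0.97 ± 0.13 (log2, adjusted p = 4.1e-08), on a mean of 47 counts per library and a peak called in 10 libraries. Cacna1i, the T-type pore with the slowest gating, had a peak (chr15:80391531-80392063) at 0.98, 1.10, 1.22, 1.41 and 0.84 CPM in RF1 and 2.08, 2.26, 2.17, 2.22 and 2.36 in RF5. RF1 was lower by 0.67 ± 0.13 (log2, adjusted p = 2.1e-05) and RF5 higher by 0.57 ± 0.12 (adjusted p = 0.00015).

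Scn9a ran the other way at a body peak (chr2:66598231-66599131), with 3.46, 2.91, 2.33, 3.23 and 3.72 CPM in RF1 and 1.77, 1.77, 1.45, 1.49 and 1.33 in RF5. These RFs did not overlap. RF5 was lower by 0.68 ± 0.12 (log2, adjusted p = 6.8e-06) and RF1 higher by 0.55 ± 0.10 (adjusted p = 8.1e-06). The fifth was a 184 bp peak of Scn8a (chr15:101035783-101035966), called in 4 libraries, with 0.807, 1.25, 0.845, 1.09 and 1.59 CPM in RF5 and 0.504 to 0.693 in RF1. The increase of 0.64 ± 0.16 in RF5 (log2, adjusted p = 0.0011) no longer passed without replicate 2 (adjusted p = 0.0109) or without replicate 5 (0.0328).

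**Figure D3:**
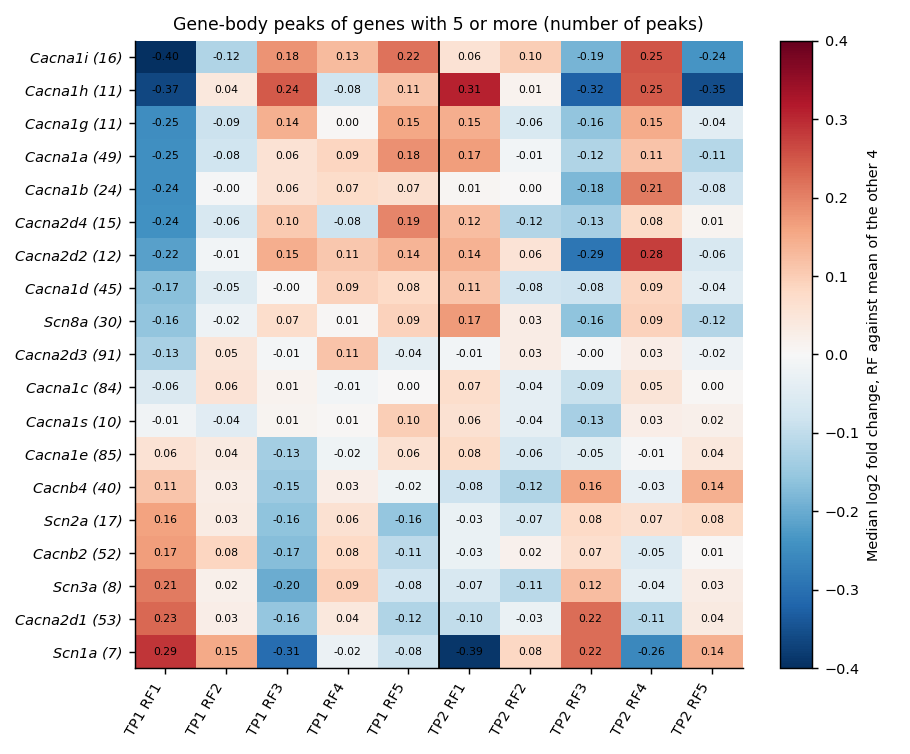
Median log2 fold change of an RF, set against the other 4 together, over the body peaks of 19 of the 20 genes with at least 5, for the 5 RFs at TP1 and at TP2, on a colour scale from -0.4 to 0.4. At TP1 RF1 is lowest at Cacna1i (-0.40) and Cacna1h (-0.37) and above 0 at Cacna2d1 (0.23) and Cacnb2 (0.17).

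At TP2, after the mice had lived in 1 laboratory, 19 of the 30 lead peaks depended on RF and 7 were DARs in a pair (55.1% and 21.9% of all end peaks). RF3 now carried most calls: 13 lead peaks were lower there, among them Cacna1a, Cacna1b, Cacna1g, Cacna1h, Cacna1i, Cacna2d2, Cacna2d3, Cacnb1, Cacnb3, Scn2b, Scn3b and Scn8a. Of all end peaks, which include the weaker ones of a gene, 32.3% were lower in RF3. The 60 end peaks of the channel genes, rather than the lead peaks, are the like set for that share. Over all 60 end peaks RF3 was higher at 1 (background 2.3%) and lower at 18, and the median of RF3 over the end peaks of all genes was -0.15, and -0.07 with the loess offset. With the loess offset 5 of these calls were left and with the 1 Mb offset 2. RF1 was higher at 6 lead peaks (Cacna1c, Cacna1h, Cacna2d2, Cacnb1 and Scn4b among them), and at 13 without the 3 libraries. Over the 60 end peaks RF1 was higher at 9 (background 15.2%). RF3 was also lowest in the neuronal marker peaks at TP2, whose part was not tested.

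Cacna1h, a T-type pore, had the widest range at TP2. Its lead peak (chr17:25432040-25434928) had 36.9, 37.6, 32.7, 42.8 and 28.1 CPM in RF1 and 21.5, 21.6, 20.8, 25.6 and 24.2 in RF3. RF2 had 33.8, 29.6, 32.9, 31.5 and 28.7 CPM, RF4 28.5, 32.6, 29.6, 32.6 and 31.3, and RF5 26.7, 25.9, 26.3, 25.8 and 26.8. RF3, with 22.4 ± 2.18 CPM (SD, n = 3), lay below the other RFs in each library. It was lower by 0.45 ± 0.06 (log2, adjusted p = 3.7e-09), but by 0.05 with the 1 Mb offset (adjusted p = 0.58). RF1 was higher by 0.37 ± 0.05 (adjusted p = 3.1e-06), and by 0.49 without the 3 libraries that were nearest to other RFs.

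Cacnb1 gave the smallest interaction p of all member peaks (adjusted p = 3.3e-16), at its start (chr11:98018710-98023113, which Rpl19 shares). At TP1 RF3 had 71.8, 72.9, 75.2, 74.1 and 77.4 CPM, among the highest of all RFs. At TP2 it had 42.3, 43.1, 39.9, 44.2 and 41.8 CPM, the lowest, while RF4 went from 54.8, 55.1, 56.4, 48.8 and 55.0 to 62.5, 65.7, 65.3, 61.4 and 63.5. Against the other RFs of its TP, RF3 was 0.27 ± 0.05 higher at TP1 (log2, adjusted p = 0.00017) and 0.49 ± 0.05 lower at TP2 (adjusted p = 3.1e-12). RF4 was 0.30 ± 0.06 lower at TP1 (adjusted p = 3.4e-05), which the loess offset turned to 0.12 higher (adjusted p = 0.017), and 0.27 ± 0.05 higher at TP2 (adjusted p = 1.8e-05). Without the 3 libraries RF3 stood at -0.53 and RF4 at 0.22 at TP2. With the 1 Mb offset the TP2 difference of RF3 came to -0.11 (adjusted p = 0.079).

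The Cacna1a lead peak was another of the 3 smallest interaction p-values (adjusted p = 3.8e-14). At TP2 RF5 had 40.5, 40.4, 44.6, 38.9 and 41.1 CPM, within the range of the other RFs, where at TP1 it had been highest. RF3 had 37.9, 35.2, 37.0, 40.4 and 41.0 CPM at TP2 and was lower than the others by 0.23 ± 0.05 (log2, adjusted p = 8.4e-05), which came to 0.0018 with the loess offset (adjusted p = 0.98). RF2 was higher by 0.21 ± 0.05 (adjusted p = 0.0056), with 46.7 to 52.4 CPM, a call that did not pass with the loess offset (adjusted p = 0.0929) and was 0.22 without the 3 libraries.

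A wide body peak of Cacna1i (chr15:80361581-80366099) was the other (adjusted p = 3.2e-15). At TP1 RF1 had 9.93, 11.3, 11.3, 9.68 and 7.46 CPM and RF3 15.6, 17.1, 16.9, 18.2 and 16.3, without overlap. At TP2 RF1 had 13.5, 16, 11.3, 14.4 and 12.1 CPM and RF3 10.4, 11.3, 10.6, 12.2 and 11.1, so RF1 now lay higher, and met RF3 only in replicates 3 and 5, both among the 3 libraries nearest to other RFs. Without the 3, RF1 was higher than the others at TP2 by 0.28 on the log2 scale (adjusted p = 0.00069) and RF3 stood at -0.22 (adjusted p = 0.0017). RF5 went from 14.7, 16.3, 16.5, 15.3 and 18.4 CPM to 9.53, 9.65, 9.89, 10.5 and 10.7. RF1 was lower than the others by 0.59 ± 0.06 at TP1 (log2, adjusted p = 6.6e-12), and RF5 lower by 0.37 ± 0.07 at TP2 (adjusted p = 0.00019).

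**Figure D4:**
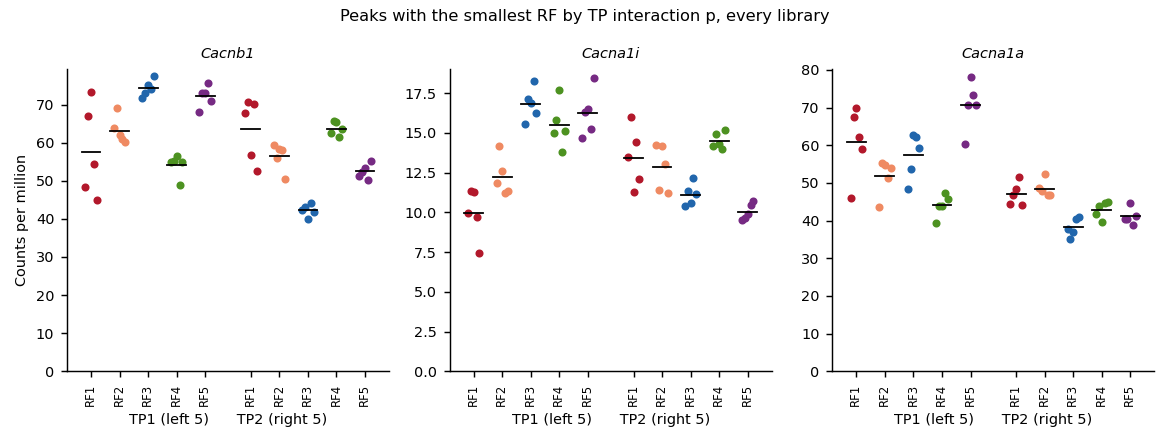
CPM of every library at both TPs for the 3 member peaks with the smallest interaction p: the lead peaks of Cacnb1 and Cacna1a and a body peak of Cacna1i. RF3 at Cacnb1 lies at 71.8 to 77.4 CPM at TP1 and at 39.9 to 44.2 at TP2, and RF5 at Cacna1a at 60.4 to 78.0 and then 38.9 to 44.6.

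At Cacna2d2, an alpha2delta subunit of cerebellar neurons, RF3 had 8.86, 9.06, 8.15, 7.28 and 10.4 CPM at TP2 (chr9:107526029-107528615). RF1 had 13.4, 15.2, 13.4, 12.3 and 11.8, and no library of the other RFs was under 9.86, which RF3 passed with 1 library. RF3 was lower by 0.48 ± 0.07 (log2, adjusted p = 5.4e-07), and by 0.16 with the 1 Mb offset (adjusted p = 0.17) and by 0.50 without the 3 libraries. The lead peak of Cacna1c (chr6:119197794-119200510) was the one among the 5 in which RF1 rather than RF3 stood apart. RF1 had 11.4, 12.3, 8.77, 10.7 and 7.99 CPM, and the other RFs 6.07 to 8.56. Both RF1 libraries near that range were among the 3 that resembled other RFs. RF1 was higher by 0.51 ± 0.08 (log2, adjusted p = 1.1e-05), and by 0.65 without the 3.

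Body peaks at TP2 showed the same 2 libraries apart. At a body peak of Cacna1h (chr17:25430019-25430944), RF1 had 13.7, 13.6, 7.60, 12.2 and 6.76 CPM, with replicates 3 and 5 inside the 4.3 to 8.45 of the other RFs. RF1 was higher by 0.79 ± 0.10 (log2, adjusted p = 2.9e-07), and by 1.05 without the 3 libraries. Cacna2d4, an alpha2delta subunit of the retina, had 6.79, 5.72, 2.53, 5.07 and 2.97 CPM in RF1 (chr6:119276514-119277315), and the same replicates were low. The difference of 0.61 ± 0.13 (log2, adjusted p = 0.00053) became 0.90 without the 3 libraries. It did not pass without replicate 1 (adjusted p = 0.0887), 2 (0.0332) or 4 (0.0105) of each RF.

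Lower in RF1 was a body peak of Cacna2d1 (chr5:16162951-16164213), with 0.966, 1.57, 0.584, 1.22 and 2.04 CPM, against 2.94, 2.54, 2.29, 2.85 and 3.32 in RF3. The RFs did not overlap. RF1 was lower by 0.71 ± 0.17 (log2, adjusted p = 0.0024) and RF3 higher by 0.57 ± 0.15 (adjusted p = 0.0024). The RF1 difference was -0.90 without the 3 libraries, and it did not pass without replicate 1 (adjusted p = 0.0897) or 4 (0.0461) of each RF. In Scn11a a body peak (chr9:119796717-119797339) had 1.55, 1.32, 1.72, 2.06 and 1.96 CPM in RF4 and 0.71 to 1.62 elsewhere, an overlap of some libraries. The difference was 0.67 ± 0.17 (log2, adjusted p = 0.0027), and it did not pass without replicate 4 (0.0400) or 5 (0.0111) of each RF. The peak of Cacna2d3 chosen at TP2 (chr14:29040797-29041257) had 0.487, 0.325, 0.677, 0.218 and 0.582 CPM in RF5. RF5 stood -0.89 ± 0.25 from the others (log2, adjusted p = 0.013), past the test over all RFs (adjusted p = 0.007) but not past the threshold on its own. Without the 3 libraries it was -0.94 (adjusted p = 0.0012).

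By gene, 7 of 11 body peaks of Cacna1h were higher in RF1 at TP2 and 7 lower in RF3, and 7 of Cacna1c were higher in RF1 and 9 lower in RF3. Cacna2d1 had 11 of 53 higher in RF3 and 3 lower in RF1. Without the 3 libraries these counts, in the same order, were 9 and 8 for Cacna1h, 11 and 16 for Cacna1c, and 18 and 6 for Cacna2d1. Over the 688 body peaks RF1 was higher at 38 and lower at 10, against 5.52% and 1.72% of all body peaks, and RF3 higher at 20 and lower at 43, against 4.92% and 6.5%. Without the 3 libraries RF1 was higher at 88 and lower at 32, and RF3 higher at 35 and lower at 79. For calls without the 3 libraries the shares of all body peaks are not given. RF4 was higher at 26 (background 4.56%).

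RF1 and RF3, which held the most body-peak calls at TP2, were compared directly for the 20 genes with at least 5 body peaks. The median log2 ratio of RF1 over RF3, over all end and body peaks of a gene, was below 0 at TP1 in 12 genes and above 0 in 8, and its sign was opposite at TP1 and TP2 in 17 of the 20. The share of all genes with opposite signs was not computed. Over the end peaks of all genes the median of RF1 over RF3 also went from -0.09 at TP1 to 0.19 at TP2. Over the body peaks of all genes it went from -0.004 to 0.015. Cacna1h went from -0.45 at TP1 to 0.49 at TP2, Cacna2d1 from 0.32 to -0.26, and Scn1a from 0.47 to -0.51. The TPs come from separate animals and sequencing batches. Across the 20 genes the medians at TP1 and TP2 had Pearson's r of -0.91 and Spearman's rho of -0.92. Without the 3 libraries the sign was again opposite in 17 genes, with r of -0.89 and rho of -0.87, and the TP2 medians were 0.68 for Cacna1h, -0.32 for Cacna2d1 and -0.66 for Scn1a.

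The peaks around these genes moved with them, in values that keep all libraries. Other peaks within 1 Mb of Cacna1h had a median of -0.48 at TP1 and 0.51 at TP2, and those around Cacna2d1 of 0.50 and -0.52. Across the 20 genes, gene and neighbours shared their sign in 18 genes at TP1 and 19 at TP2, with r of 0.91 and rho of 0.86 at TP1, and 0.85 and 0.89 at TP2. The medians also followed how many protein-coding genes the surroundings held, with r of -0.73 and rho of -0.83 at TP1, and 0.78 and 0.87 at TP2. Cacna1h lies among 47.5 genes per Mb and Cacna1a among 30.9, Cacna2d1 among 4.51, Scn1a among 4.15 and Cacnb2 among 3.77. These relations are descriptions over 20 genes measured in the same libraries. Scn1a, Scn2a and Scn3a lie side by side, and without them the r between gene and neighbours was 0.88 at TP1 and 0.91 at TP2 (n = 17). Cacna1c and Cacna2d4 also lie within 1 Mb of each other, as do Cacna2d3 and Cacna1d, and these stayed in. Peaks of a channel gene count among the neighbours of another within 1 Mb, so the 17 are not all separate regions.

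**Figure D5:**
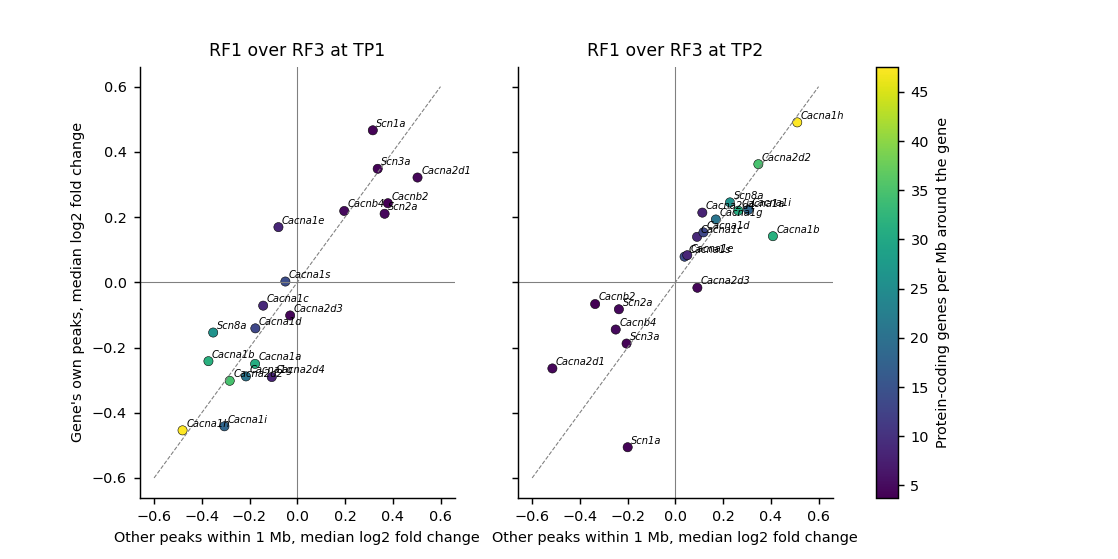
Median log2 ratio of RF1 over RF3 over all peaks of 19 of the 20 genes with at least 5 body peaks (vertical axis) against that over all other peaks within 1 Mb (horizontal axis), for TP1 and TP2, coloured by protein-coding genes per Mb. Cacna1h, in a gene-dense region, lies at -0.45 at TP1 and 0.49 at TP2, and Cacna2d1, in a gene-poor one, at 0.32 and -0.26.

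Genes of proteins that bind the channels were tested by the same rules, with the same backgrounds. Of those for sodium channel partners (fibroblast growth factor homologous factors, ankyrin G, beta IV spectrin, neurofascin and NrCAM), 10 of 13 end peaks depended on RF at TP1 and 10 at TP2. Body peaks passed at 132 of 278 and 42. At TP1 the lead peak of Fgf14, which binds the tail of the pore, was higher in RF1 by 0.42 ± 0.05 (log2, adjusted p = 2.5e-11), and that of Nrcam, an adhesion molecule of the node of Ranvier, by 0.41 ± 0.04 (2.5e-11). At TP2 Sptbn4, which anchors the axon initial segment, was lower in RF3 by 0.53 ± 0.06 (log2, adjusted p = 6e-11) and Fgf11 by 0.43 ± 0.06 (1.9e-07), and without the 3 libraries by 0.57 and 0.45. The lead peaks of Sptbn4 and Fgf11 also lay at an end of Blvrb and Chrnb1, and their values belong to both genes. That of Fgf11 lay at the end where transcription finishes.

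For the calcium channel partners (gamma subunits, RGK proteins, Stac adaptors and Rim proteins), 23 of 32 end peaks passed at TP1 and 18 at TP2, and 98 and 37 of 185 body peaks. Over the 32 end peaks RF1 was higher at 5 and lower at 12 at TP1 (28.3% and 30.0% of all end peaks). Rims1, which ties calcium channels to the release site, was higher in RF1 at TP1 by 0.47 ± 0.05 (log2, adjusted p = 3.7e-11) and Gem, an RGK inhibitor of calcium channels, by 0.43 ± 0.07 (2.6e-06). Cacng1 was lower in RF1 at TP1 by 0.45 ± 0.09 (log2, adjusted p = 3.3e-05), at a peak called in 23 libraries. Cacng6, a gamma subunit, was higher in RF1 at TP2 by 0.45 ± 0.08 (log2, adjusted p = 5.6e-05), and by 0.67 without the 3 libraries. The sodium leak channel, which carries a steady inward current, passed at 5 of 6 end peaks at TP1 and 2 at TP2, and at 25 of 74 body peaks at TP1 (33.8%, background 50.7%) and 1 at TP2 (1.35%, background 22.9%). Its pore gene Nalcn was higher in RF1 at TP1 by 0.42 ± 0.05 (log2, adjusted p = 1.5e-09) and its partner Unc80 by 0.41 ± 0.05 (2.3e-10). At TP1 RF4 was lower at both, by 0.33 and 0.35 on the log2 scale. The Unc80 lead peak lay at the end where transcription finishes and also at an end of Rpe, so its values belong to both genes.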

How the data were processed

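The authors trimmed reads with fastp, aligned them with Bowtie2 to GRCm38, marked duplicates with Picard 1.140 and called broad peaks in each library with MACS2 2.1.4. A peak had to be called in 3 or more of a group's 5 libraries, the 10 groups were then merged, and reads were counted per merged peak. The deposited values used are these raw counts, not normalized. The normalized counts that were deposited are identical to these and were not used. The deposited peak lists of each library hold the MACS2 score, the fold enrichment (a ratio), and the -log10 p-value and -log10 q-value given by the authors' peak caller, of which only positions were used, to count in how many libraries a peak was called. The deposited list of merged peaks holds a score that gives the number of groups with the peak.

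edgeR 4.0.16 (R 4.3.3) was used for the tests, with TMM scaling, filterByExpr and the robust quasi-likelihood F-test. Each TP had its own model, of RF plus the replicate number, and p-values were adjusted (Benjamini-Hochberg) over all peaks tested. All 748 member peaks passed the filter on low counts at both TPs. Per the methods a sorting batch held 1 mouse of every RF, and the replicate number was used in its place. Deviations from the group mean correlated by 0.0516 between libraries of 1 number at TP1 and 0.0023 at TP2, and were over 0.1 in 12 and 1 of the 50 pairs of libraries per TP that share a number. Levels are CPM with TMM factors over all 50 libraries. Libraries were counted as 1 sample where every pair among them differed by no more than 1.02 times the sampling variance. The comparison used 16647 peaks of 500 to 5000 counts. A binomial variance multiplied by 2 served as the sampling variance, and the same limit defined every pair within sampling noise. The labels give a mouse of its own to each library.

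Genes and start sites are from RefSeq GRCm38.p6. Start sites, and so strands, were not given for genes that include Scn3a, Scn3b, Cacna1a, Cacna1g, Cacna1h and Cacna2d4. Genes are named with their lead peaks, and 2 of the 32 genes, which stay in all counts, are not reported here by name. Values by library are for the 5 lead peaks and 5 body peaks (1 per gene) per TP with the widest range between RF means among those past the F-test, and for the 3 peaks with the smallest interaction p. Up to 4 partner genes per list were named by range. The members, lists and rules were chosen with earlier results of these data known.

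Alternatives were DESeq2 1.42.0, DESeq2 size factors, no filter, no replicate block, leaving out each replicate number, a loess offset over abundance per library, an offset of the log total of at least 10 other peaks in the same 1 Mb bin, leaving out 3 TP2 libraries, and summing libraries within noise. The bins were cut at whole Mb of the chromosome, not centred on the peak, and other peaks of the same gene counted in the total. Figures were drawn with matplotlib 3.10.9 under Python 3.11.15, and the loess offset used the lowess function of R.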

Additional observations from a re-analysis of the deposited data

Results flagged for a closer look

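Of 130 groups of 5 libraries tested at the named peaks, 3 held a library whose gap to the next was beyond Dixon's limit, where chance gives about 1 in 20. They were RF1 replicate 3 at the Cacna2d3 body peak at TP1, with 1.37 CPM against 0.906 to 1.03 in the others, RF5 replicate 2 at the Cacna1h body peak at TP2, with 4.85 against 5.54 to 5.74, and RF4 replicate 4 at the Cacnb1 lead peak at TP1, with 48.8 against 54.8 to 56.4.

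The differences between RFs changed between TP1 and TP2, by the test of the interaction itself, at 18 of the 21 named peaks, and 17 of these are given here. The peaks were chosen for a wide range between RFs or a small interaction p, so nothing is read from that count, and over all genes 74.4% of end and 46.7% of body peaks passed the same test. Among lead peaks the adjusted p (edgeR) was 3.3e-16 at Cacnb1, 3.8e-14 at Cacna1a, 6.5e-12 at Cacna2d2, 3.1e-11 at Scn4a, 4e-11 at Cacna1h, 9.2e-11 at Cacna2d1, 5.3e-06 at Cacna1c, 7.5e-05 at Cacnb2 and 8.2e-05 at Scn11a. Among body peaks it was 3.2e-15 and 3.4e-05 at Cacna1i, 1.7e-11 at Cacna1h, 1.8e-09 at Scn4a, 6.1e-07 at Cacna2d4, 3.4e-06 at Scn9a, 0.0042 at Cacna2d3 and 0.007 at Cacna2d1. TP and sequencing batch cannot be told apart in these values.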

How the results depend on the processing

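DESeq2, DESeq2 size factors, no filter on low counts and the loess offset left each count of passing peaks within 1.5 times its value, and no value in the largest RF difference of a peak given by library changed direction. Of 72 differences of an RF from the others that passed at named lead peaks, 9 changed sign with the loess or the 1 Mb offset, none passing afterwards. With loess these were RF1 at Cacna1a (-0.04), RF4 at Cacna1b (0.02), Scn3b (0.07) and Cacnb1 (0.12) at TP1 and RF3 at Cacna1a and Scn3b at TP2, and with 1 Mb Cacnb1 in RF1 (0.03) and Cacna1h in RF3 (-0.02) at TP1 and Cacnb3 in RF3 (0.06) at TP2. Without the replicate block the RF test passed for 44 end and 299 body peaks at TP1 and 30 and 118 at TP2, and the interaction for 42 and 262. The 1 Mb offset lowered the DARs at TP1 end peaks from 18 to 11, the RF test at TP2 to 10 end and 30 body peaks, the DARs at TP2 to 2 and 16, the interaction to 27 and 145, and the named calls that held at TP2 from 9 to 3. The same peaks passed with and without it in 275 of 373 cases at TP1, 33 of 149 at TP2 and 135 of 306 for the interaction. Leaving out the 3 TP2 libraries raised the DARs at TP2 to 23 end and 126 body peaks and the RF test to 232 body peaks. Summing libraries within noise left 17 end and 45 body peaks past the RF test at TP2 and 36 body DARs. Leaving out each replicate number in turn gave ranges, for end and body peaks, of 38 to 46 and 229 to 307 for the RF test at TP1, 18 to 33 and 49 to 174 at TP2, 17 to 23 and 105 to 151 for DARs at TP1, 9 to 17 and 30 to 101 at TP2, and 35 to 44 and 179 to 267 for the interaction. At TP2 it was leaving out replicate 1, 2 or 4 that lowered the RF test most (18, 19 and 19 end and 50, 49 and 54 body peaks), and leaving out replicate 5 that raised the body DARs to 101. Named calls held at 9 to 10 of 10 at TP1 and 6 to 9 of 9 at TP2. The split of higher against lower calls in RF4 at TP1 was 8 to 12 for end and 38 to 32 for body peaks, 11 to 2 and 33 to 10 with the loess offset, and 18 to 14 and 138 to 24 with the 1 Mb offset. For RF1 body peaks at TP1 it was 87 to 152 and, with the 1 Mb offset, 42 to 127. Over the body peaks of all genes, the 1 Mb offset moved the TP1 median from 0.04 to 0.12 in RF4 and from -0.03 to -0.10 in RF1. In RF3 at TP2 the split was 1 to 18 and 20 to 43, and 3 to 7 and 20 to 18 with the loess offset. Shares over all peaks are not given for the changed settings, so nothing particular to the channel genes is read from these counts. The cause of these shifts was not tested. TP2 had fewer counts per library, and body peaks with under 50 counts on average carry wide errors.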
